A study of Homo sapiens with 4 samples.

Results

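The ASH1L peaks described here lie beside promoters: their summit was at most 10 kb from the nearest protein-coding gene start, and the peak did not reach the 1 kb on either side of any such start. They were found in both ASH1L peak lists of a CUT&RUN experiment, 409 in the DMSO list and 261 in the AS-99 list, 670 of the 4885 ASH1L peaks on chromosomes 1 to 22 and X and of 6948 peaks in all 4 lists. The rule chose them among the listed peaks by position alone, so their number and sequence and their overlap with other peaks did not enter the rule. Their height entered through the listing, since a peak had to pass a q-value threshold of 0.01 to be listed. CUT&RUN uses an antibody that draws a nuclease to its target in permeabilised cells, and the DNA cut loose around the target is sequenced. The cells were MV4;11, a human acute leukemia line that carries an MLL1 rearrangement and the MLL-AF4 fusion. For 4 days they had been kept in AS-99 at 5 µM, or in the vehicle DMSO at 0.25%, and each treatment gave 1 ASH1L and 1 H3K36me2 library (dimethylated lysine 36 of histone H3). The maker and clone of the ASH1L antibody are not given in the sources used here, and no control antibody was analysed, so the peaks are called ASH1L peaks by their label. Every comparison between treatments is therefore one between libraries: the treatment and the library cannot be told apart, there is no replicate check, and the 95% intervals below take in counting error, or how peaks vary among themselves, and nothing else.

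ASH1L is a large chromatin protein whose catalytic SET domain dimethylates lysine 36 of histone H3. Its C-terminal part also holds a bromodomain, a PHD finger and a BAH domain, modules that contact modified histones and nucleosomes. In leukemia with MLL1 fusions, ASH1L is required at loci such as the HOXA cluster, where H3K36me2 is read by LEDGF, a partner of the MLL1 protein. AS-99 is a small molecule that binds the SET domain and blocks its activity. Sequence within a few kb of a gene start holds the shores of CpG islands, first introns, alternative promoters and near enhancers. CpG, a cytosine followed by a guanine, is rare in most of the human genome and dense in the CpG islands at many promoters.

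The sequences of a few flanking peaks show the contrast on which the results below turn. Each is the 200 bp around a summit on the plus strand of hg19, and capitals mark every CpG. The first 2 come from the CpG-dense peaks that were frequent in the DMSO list. PMF1 was the highest flanking peak and PNRC2 one of the few such peaks found under both treatments.
PMF1 (chr1:156186332-156186531): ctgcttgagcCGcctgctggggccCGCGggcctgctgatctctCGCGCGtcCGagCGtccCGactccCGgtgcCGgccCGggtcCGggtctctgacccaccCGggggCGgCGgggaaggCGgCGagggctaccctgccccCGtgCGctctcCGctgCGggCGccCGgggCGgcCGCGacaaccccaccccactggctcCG
PNRC2 (chr1:24285907-24286106): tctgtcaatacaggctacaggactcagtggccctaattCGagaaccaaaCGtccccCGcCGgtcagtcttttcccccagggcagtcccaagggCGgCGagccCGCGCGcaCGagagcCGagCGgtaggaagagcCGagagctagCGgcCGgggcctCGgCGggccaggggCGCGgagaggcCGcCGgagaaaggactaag
The next 3 are CpG-poor. METTL21A was high in DMSO only, TNFSF9 had a peak in all 4 lists, and NOS2 was found under AS-99 only.
METTL21A (chr2:208497781-208497980): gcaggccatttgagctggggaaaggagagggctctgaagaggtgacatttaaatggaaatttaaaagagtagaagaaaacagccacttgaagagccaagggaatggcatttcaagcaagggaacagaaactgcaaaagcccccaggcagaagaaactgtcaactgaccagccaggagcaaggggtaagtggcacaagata
TNFSF9 (chr19:6522229-6522428): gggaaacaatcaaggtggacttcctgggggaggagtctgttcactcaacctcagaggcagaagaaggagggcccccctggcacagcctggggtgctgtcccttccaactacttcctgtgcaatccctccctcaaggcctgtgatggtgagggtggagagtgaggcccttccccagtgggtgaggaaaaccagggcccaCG
NOS2 (chr17:26132792-26132991): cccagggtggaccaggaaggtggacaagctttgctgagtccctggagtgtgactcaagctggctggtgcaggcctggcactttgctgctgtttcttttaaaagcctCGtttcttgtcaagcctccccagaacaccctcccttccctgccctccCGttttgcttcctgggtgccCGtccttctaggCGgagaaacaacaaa
The last 2 lie beside genes of blood cell development, LMO2 and CEBPA.
LMO2 (chr11:33915458-33915657): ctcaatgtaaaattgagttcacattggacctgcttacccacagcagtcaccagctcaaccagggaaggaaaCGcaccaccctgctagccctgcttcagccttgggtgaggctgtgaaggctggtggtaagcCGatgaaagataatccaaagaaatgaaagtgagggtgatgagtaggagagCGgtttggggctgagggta
CEBPA (chr19:33784050-33784249): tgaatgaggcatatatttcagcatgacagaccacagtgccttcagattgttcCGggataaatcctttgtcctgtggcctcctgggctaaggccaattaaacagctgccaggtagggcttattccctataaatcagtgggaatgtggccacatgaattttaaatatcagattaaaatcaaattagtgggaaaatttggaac

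Flanking peaks took a slightly larger share of the ASH1L lists than the flanking zone takes of the genome. They made up 13.3% of the DMSO list (95% interval 12.1 to 14.6%) and 14.4% of the AS-99 list (12.8 to 16.1%), whereas the zone holds 10.2% of the determined bases. The density was 14.1 peaks per 10 Mb in DMSO and 9.0 in AS-99. In DMSO this was far below the 208 per 10 Mb within 1 kb of gene starts, and above the 8.69 of gene bodies farther than 10 kb from a start and the 6.67 of other distal sequence. The share differed between treatments by 1.09 percentage points (-0.888 to 3.14), less than its counting error.

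The flanking peaks were low. Their pileup, the number of fragments over the summit, had a median of 17 in DMSO, quartiles of 15 and 20 and a range of 10 to 93. In AS-99 the median was 15, the quartiles 13 and 18 and the range 9 to 35. The fold enrichment over local background had medians of 4.54 and 4.89. These values sat close to those of promoter peaks, with median pileups of 17 and 15. Little separated members from their neighbours at the limits of the class: RPS9 (9971 bp, pileup 20) and TSEN34 (1149 bp, pileup 18) were the outermost and innermost DMSO members, PAM16 at 10064 bp (pileup 15) fell just outside, and GADD45G, with a summit at 1365 bp (pileup 20), counted as promoter because its peak reached within 1 kb.

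Along the zone the peaks were spread rather evenly in DMSO, with 193 upstream and 216 downstream of the nearest start. The upstream share of 47.2% (42.3 to 52.2%) was near the 48.4% of zone bases that lie upstream. In AS-99, 109 lay upstream and 152 downstream, and the upstream share of 41.8% (35.7 to 48.0%) was below that of the bases. The difference between treatments was -5.43 points, with an interval of -13.0 to 2.30 that includes 0. Between 1 and 2 kb AS-99 had 14 upstream and 36 downstream peaks, DMSO 26 and 36, and between 2 and 5 kb AS-99 had 35 and 52, DMSO 65 and 77. Between 1 and 2 kb the AS-99 over DMSO ratio was 1.00 (0.612 to 1.63) downstream and 0.538 (0.260 to 1.07) upstream, and these intervals overlap. Between 5 and 10 kb both lists were balanced, with 102 and 103 peaks in DMSO and 60 and 64 in AS-99.

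**Figure D1:**
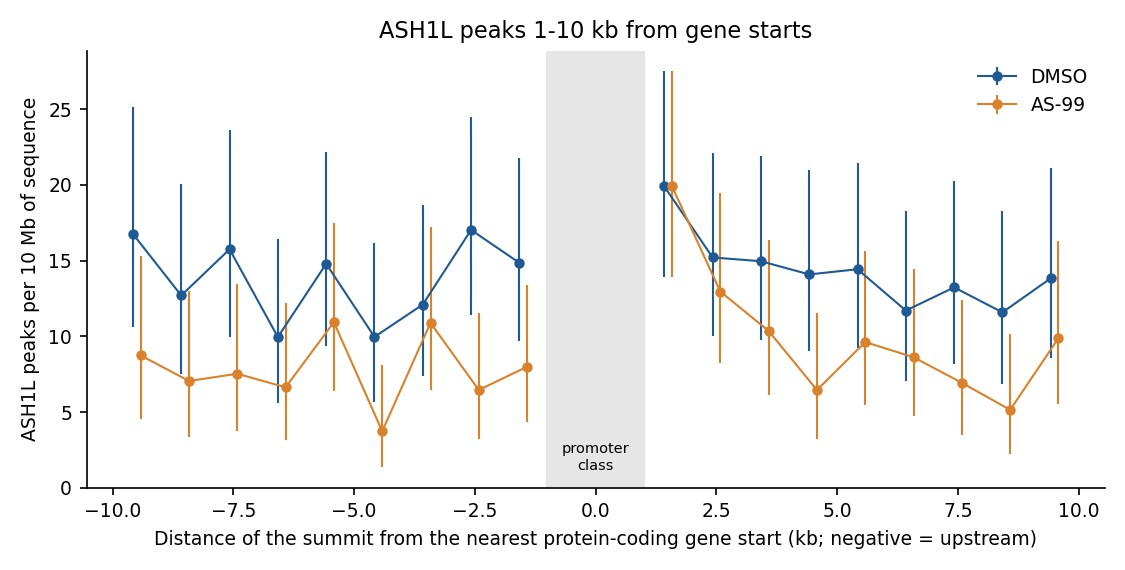
Density of ASH1L peaks by distance of the summit from the nearest protein-coding gene start, in 1-kb steps, for DMSO (blue) and AS-99 (orange), as peaks per 10 Mb of sequence at that distance with exact Poisson 95% intervals. The DMSO profile is flat within its intervals, and the AS-99 points lie below it except between 1 and 2 kb downstream, where both lists hold 36 peaks. Peaks that reach within 1 kb of a start are left out although all bases are counted, so densities between 1 and 2 kb are understated.

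By annotation of protein-coding genes at the summit, 178 of the 409 DMSO peaks lay in introns and 164 outside coding genes. A further 35 lay in untranslated exons, 20 in coding exons and 12 in exons of non-coding transcripts of coding genes. Non-coding genes were not used here, so a peak outside coding genes may lie in a non-coding gene. The AS-99 counts were 124, 87, 27, 12 and 11 in the same order. Many flanking peaks were close to a start that the class rule does not use, that is, another transcript of a coding gene or a non-coding gene. In DMSO, 140 of 409 summits (34.2%, 29.6 to 39.1%) lay within 1 kb of such a start, and in AS-99 83 of 261 (31.8%), against 13.7% of the zone's bases. For these peaks the name flanking holds only for the 1 start per gene that the class rule uses. Alternative starts of coding genes accounted for 97 of the DMSO peaks and starts of long non-coding RNAs for 41, with some near both. The share was higher downstream than upstream, 42.6% against 24.9% in DMSO, a difference of 17.7 points whose interval, written as upstream minus downstream, ran from -26.4 to -8.56. In AS-99 it was 40.8% downstream and 19.3% upstream. The class rule sets part of this, since it uses the outermost start of a gene and other starts of that gene lie downstream. The zone's bases near such starts were not split by side. With peaks of at least 6-fold enrichment only, the DMSO share over both sides was 22.6% (9.59 to 41.1%).

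Flanking peaks seldom accompanied a peak at the start of the same gene. Of the 409 DMSO peaks, 8 (1.96%, 0.848 to 3.82%) had a DMSO ASH1L peak within 1 kb of their nearest start, although 4.66% of all coding gene starts did. In AS-99 it was 2 of 261 (0.766%, 0.0929 to 2.74%) against 1.57% of starts. The class rule sets part of this, since a peak that also reaches the start belongs to the promoter class.

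The number of flanking peaks in AS-99 was 0.638 of that in DMSO (0.544 to 0.747). Promoter peaks had a ratio of 0.358 (0.311 to 0.411), gene body peaks 0.661 (0.597 to 0.732) and distal peaks 0.685 (0.618 to 0.758). The flanking ratio was 1.78 times the promoter ratio (1.44 to 2.20), and did not differ beyond counting error from the gene body ratio (0.965 times, 0.798 to 1.17) or the distal ratio (0.932 times, 0.771 to 1.13). The AS-99 library was shallower, with 15381860 filtered fragments against 19635489, and its fragment size per the file header was larger, 269 against 250 bp. When DMSO peaks were thinned to the number of AS-99 fragments, an expected 344 flanking peaks were left, which gave a ratio of 0.759. When fragment size was counted in as well, 366 were left and the ratio was 0.713. When both ASH1L lists were trimmed to the same length by -log10 p, the flanking ratio was 1.07 (0.891 to 1.27), with an interval that includes 1. Trimming sets the ratio over all classes to 1. The flanking ratio then follows only the flanking share of each list, so it cannot test the lower count.

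The lists also differed in the CpG content of the flanking peaks, and this difference remained with lists of equal length. Peaks with at least 10 CpG in the 300 bp around the summit, hereafter CpG-rich, numbered 147 in DMSO and 50 in AS-99, a ratio of 0.340 (0.242 to 0.472). The other peaks, hereafter CpG-poor, numbered 262 and 211, a ratio of 0.805 (0.669 to 0.969). The limit of 10 was chosen after the values had been seen. The CpG-rich ratio was 0.422 times the CpG-poor ratio (0.286 to 0.619). After thinning to an equal number of fragments the ratios were 0.404 for CpG-rich and 0.958 for CpG-poor flanking peaks, and after thinning to equal fragments times fragment size 0.381 and 0.899.

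CpG-rich peaks were 35.9% of flanking peaks in DMSO and 19.2% in AS-99, a difference of -16.8 points (-23.2 to -9.90), and 9.05% of 300-bp windows of the zone are CpG-rich. With lists of the same length the shares were 37.1% and 19.2%, and the difference of -18.0 points had an interval of -25.5 to -10.2. At a -log10 p of 10 or more they were 38.7% and 21.4% (-17.3 points, -29.2 to -3.64). Of the 31 and 25 peaks with at least 6-fold enrichment, 9 and 5 were CpG-rich, and the interval of -29.8 to 14.1 points includes 0. Peaks with at least 30 CpG numbered 20 in DMSO and 2 in AS-99. The most CpG-dense DMSO summits had 43 CpG in an untranslated exon nearest to TNRC18 and 41 in an intron of PMF1. PMF1 encodes a kinetochore protein. Next came 39 in an untranslated exon near HYLS1 and 38 outside coding genes near TSHZ3, a zinc finger gene. The AS-99 summits with at least 30 CpG lay in an intron of SLC12A4, a potassium-chloride cotransporter gene, with 39 CpG, and in a coding exon of KRT10, a keratin gene, with 36. TNRC18, HYLS1, TSHZ3, SLC12A4 and KRT10 were chosen after their values were seen.

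**Figure D2:**
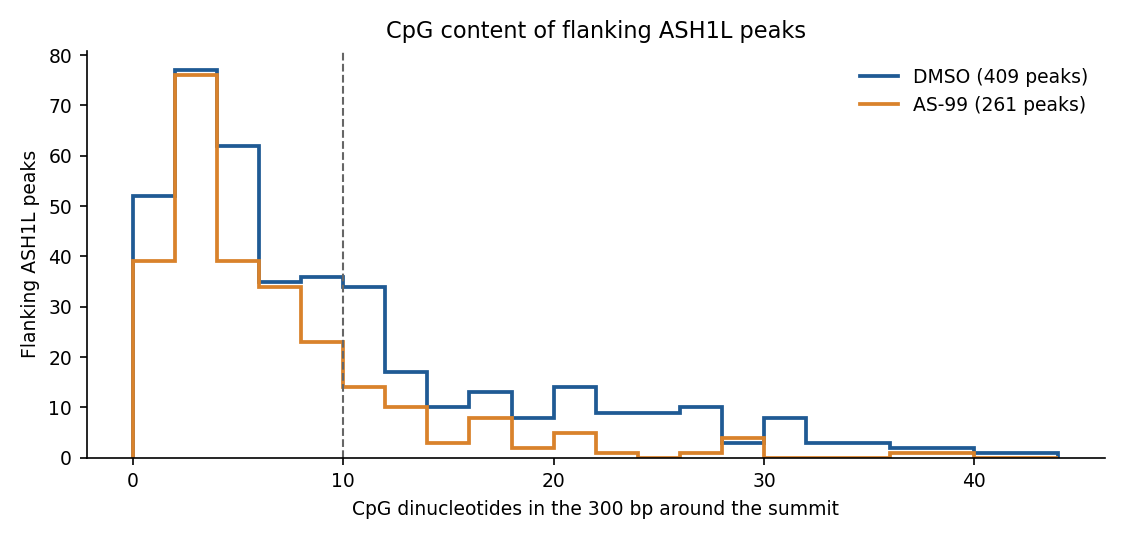
Histogram of the number of CpG dinucleotides in the 300 bp around the summit of each flanking ASH1L peak, in steps of 2, for DMSO (409 peaks, blue) and AS-99 (261 peaks, orange). The dashed line marks 10 CpG, at and above which DMSO has 147 peaks and AS-99 50, while the histograms run close together from 2 to 3 CpG.

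The same held for GC content. Flanking peaks with a window of at least 65% GC numbered 65 in DMSO and 13 in AS-99 (ratio 0.20, 0.101 to 0.366), those between 35 and 45% GC 67 and 83 (1.24, 0.887 to 1.74). Median GC was 54.7% in DMSO and 48.7% in AS-99, against 44.3% over windows of the zone. The H3K36me2 lists moved otherwise: their CpG-rich flanking peaks numbered 9 in DMSO and 13 in AS-99 (1.44, 0.571 to 3.83) and their CpG-poor ones 175 and 76 (0.434, 0.327 to 0.572). The base composition of the sequenced fragments is not in the lists, so its part in the ASH1L difference was not tested.

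The CpG-rich flanking peaks resembled CpG-rich peaks elsewhere in how few appeared under AS-99. CpG-rich promoter peaks had a ratio of 0.299 (0.254 to 0.350), CpG-rich gene body peaks 0.301 (0.224 to 0.401) and CpG-rich distal peaks 0.503 (0.385 to 0.652). Within the CpG-rich peaks the flanking ratio was 1.14 times the promoter ratio (0.779 to 1.64), and within the CpG-poor peaks 0.964 times (0.660 to 1.41). Thus the difference from promoters in the total counts was not seen within either CpG class, although these intervals leave room for differences of up to 1.64 times. CpG-rich peaks made up 88.9% of promoter peaks in DMSO and 35.9% of flanking peaks.

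**Figure D3:**
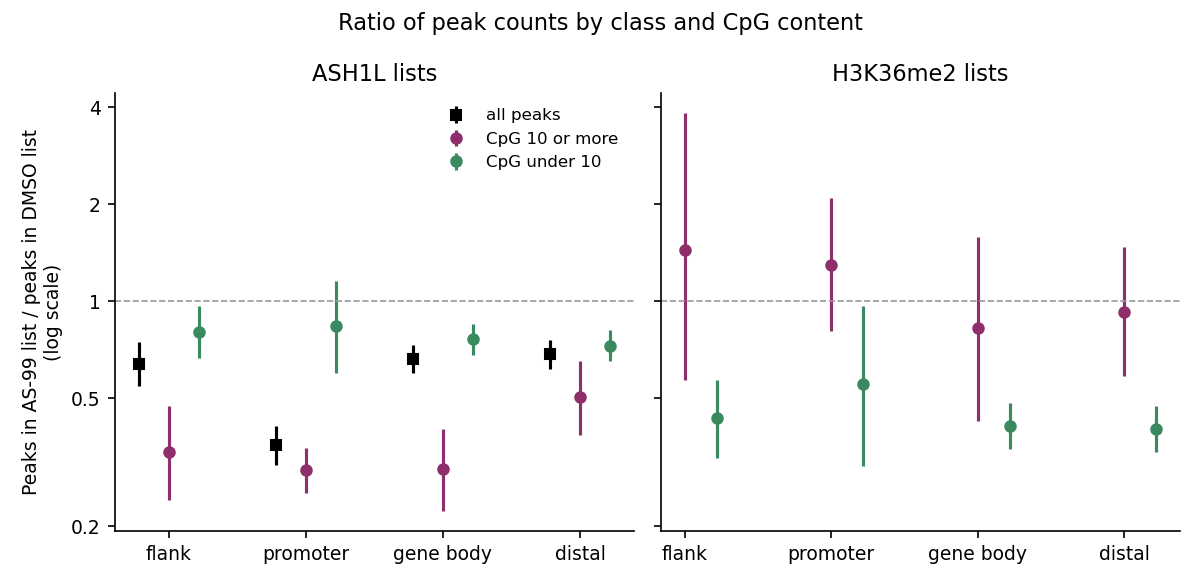
Number of peaks in the AS-99 list divided by the number in the DMSO list, on a log axis, by class, for ASH1L (left) and H3K36me2 (right), with exact conditional binomial 95% intervals; black squares are all peaks, purple circles peaks with at least 10 CpG and green circles peaks with fewer. For ASH1L the purple points lie between 0.299 and 0.503, below the green points at 0.727 to 0.835; for H3K36me2 the green points are the lower ones.

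Closeness to another start did not separate the peaks in this way. Of CpG-rich DMSO flanking peaks, 80 of 147 lay within 1 kb of another start and 67 did not, and the AS-99 over DMSO ratios were 0.362 (0.228 to 0.561) and 0.313 (0.182 to 0.518). Of CpG-poor peaks the ratios were 0.90 (0.611 to 1.32) near another start and 0.777 (0.627 to 0.962) away from one. On both sides of the start CpG-rich peaks had the lower ratio, 0.250 (0.129 to 0.455) upstream and 0.396 (0.261 to 0.588) downstream, against 0.693 (0.528 to 0.907) and 0.928 (0.715 to 1.20) for CpG-poor peaks.

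Few flanking peaks were found at the same place under both treatments. Of the 409 DMSO flanking peaks 46 (11.2%, 8.35 to 14.7%) overlapped an AS-99 ASH1L peak by at least 1 bp, close to the 12.5% of all DMSO ASH1L peaks. In the other direction 47 of 261 AS-99 flanking peaks (18.0%) overlapped a DMSO peak, against 21.1% of the AS-99 list. The DMSO share was near that of promoter peaks (difference 1.48 points, -2.07 to 5.40) and below that of distal peaks (-5.42 points, -9.12 to -1.32). In the AS-99 list the flanking share was below both that of promoter peaks (-8.90 points, -15.8 to -1.82) and that of distal peaks (-6.33 points, -11.8 to -0.316). Among DMSO flanking peaks the share found again in AS-99 rose with height. It was 6 of 135 with a pileup of 10 to 15 and 11 of 148 with 16 to 19. With 20 to 24 fragments it was 17 of 97, and with at least 25 it was 12 of 29 (41.4%, 23.5 to 61.1%). DMSO peaks found again had a median pileup of 21 and the others 17. With both ASH1L lists limited to peaks of at least 6-fold enrichment, the share found again was 19.4%. An AS-99 peak below 6-fold did not count there. Distance from the start made little difference, with 9.68% found again at 1 to 2 kb, 14.1% at 2 to 5 kb and 9.76% at 5 to 10 kb, and intervals that overlap.

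In terms of genes, the DMSO flanking peaks were nearest to 405 genes and the AS-99 peaks to 257, and 53 genes were in both sets (13.1% of the first and 20.6% of the second). For 46 of these the peaks themselves overlapped. No gene was nearest to more than 2 flanking peaks of a list. CTSB, TRIM8, PARP16 and DMWD had 2 in DMSO, and GP6, ZNF595, RAB22A and IFNLR1 had 2 in AS-99. Those 8 genes were named after their values were seen. An AS-99 peak near IFNLR1 overlapped a DMSO peak. Of the short words of sequence around that DMSO summit, 83.5% occur more than once in the genome, so reads there are uncertain in origin.

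Some of the highest DMSO flanking peaks had no AS-99 counterpart. The peak in the PMF1 intron (chr1:156186276-156186573, 3648 bp downstream of the start) had a pileup of 93 (Poisson 75.1 to 114) and 17.9-fold enrichment, and neither the AS-99 ASH1L list nor an H3K36me2 list had a peak there. The next DMSO peaks without an AS-99 peak were 32 fragments in an untranslated exon 6936 bp downstream of the MED29 start (a Mediator subunit), 31 in an intron 8548 bp downstream of the CSK start (a kinase that restrains Src-family kinases), 30 located 7229 bp upstream of METTL21A (a lysine methyltransferase) and 29 located 6025 bp upstream of MTDH. Of these 5 peaks only that of PMF1 was CpG-rich. The reverse set, AS-99 peaks with no DMSO ASH1L peak, was led by PPM1N, a phosphatase gene, with 32 fragments 3101 bp upstream. It was followed by a pair of peaks near ZNF595 on chromosome 4, with 31 and 29 fragments, whose fold enrichment was only 3.59 and 3.28 and which lay in H3K36me2 peaks of 52 and 49 fragments in DMSO. An intron upstream of NOS2, the inducible nitric oxide synthase gene, had 25 fragments in AS-99 and lay in a DMSO H3K36me2 peak of 18. SYCE2, a synaptonemal complex gene, had 24.

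By fold enrichment the leading upstream DMSO peaks lay near DEFA6 (8.11-fold, pileup 34 in DMSO and 21 in AS-99), METTL21A (7.56), ZNF655 (7.01), SFTPA2 (6.99, pileup 23 and 17) and ADORA3 (6.55). The leading downstream ones lay near PMF1, REXO1L1 (10.6), PNRC2 (7.82), AQP9 (7.58, an aquaglyceroporin of leukocytes) and CFAP46 (6.65). The DEFA6 and SFTPA2 peaks were found under both treatments, the ADORA3 peak lay in an AS-99 H3K36me2 peak of 16 fragments, and 61.2% of the 31-base words at the CFAP46 summit occur elsewhere in the genome. In AS-99 the leading upstream peaks were those near NOS2 (8.98), POU2F2 (7.43), PPM1N (7.13), GPR62 (7.11) and C16orf78 (7.09). The leading downstream ones lay near REXO1L1 (10.2), LHFPL2 (7.62), PPP2R5B (7.14), ENSG00000289025 (6.96) and RAB22A (6.55). REXO1L1 belongs to a family of near-identical copies, and 40.0% of the words at its DMSO summit were not unique, so reads there are uncertain in origin.

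For the 46 flanking peaks matched 1 to 1, the pileup per 10000000 filtered fragments had a median close to equality between treatments. The median log2 ratio of AS-99 over DMSO was 0.14 (0.01 to 0.28 over peaks), with 31 higher and 15 lower and a range of -0.58 to 1.09. Promoter pairs gave 0.11, distal pairs 0.16 and gene body pairs 0.24, and the intervals of all classes overlap that of the flanking pairs. Dividing by the summed pileup of all listed peaks in place of the library's fragments gave a flanking median of 0.53 (0.40 to 0.67). Dividing by fragments times fragment size gave 0.03 (-0.09 to 0.18). This scaling takes 0.11, the log2 ratio of the 2 fragment sizes, off every pair. Whether pileup follows fragment size was not tested. The interval included 0 under 7 of 11 alternatives, among them lists of equal length (0.07, -0.08 to 0.21) and the 5-kb limit (0.07, -0.23 to 0.20), so neither a rise nor its absence is shown. Pairs exist only where both lists have a peak, and an AS-99 peak needs a larger share of its library's fragments to be listed, since its lowest pileup was 9 in the shallower library against 10 in DMSO. The largest rise was at a peak 1226 bp upstream of NDUFAF6, a complex I assembly gene, from 15 to 25 fragments. POU2F2, which encodes the lymphoid factor OCT2, went from 28 to 35 fragments (14.3 to 22.8 on that scale, log2 0.67), the highest AS-99 flanking peak. The lowest ratios were those near CHMP6 (21 to 11, log2 -0.58), PNRC2 (28 to 15, log2 -0.55) and CTF1 (22 to 12, log2 -0.52). NDUFAF6 and CHMP6 were named after their values were seen.

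**Figure D4:**
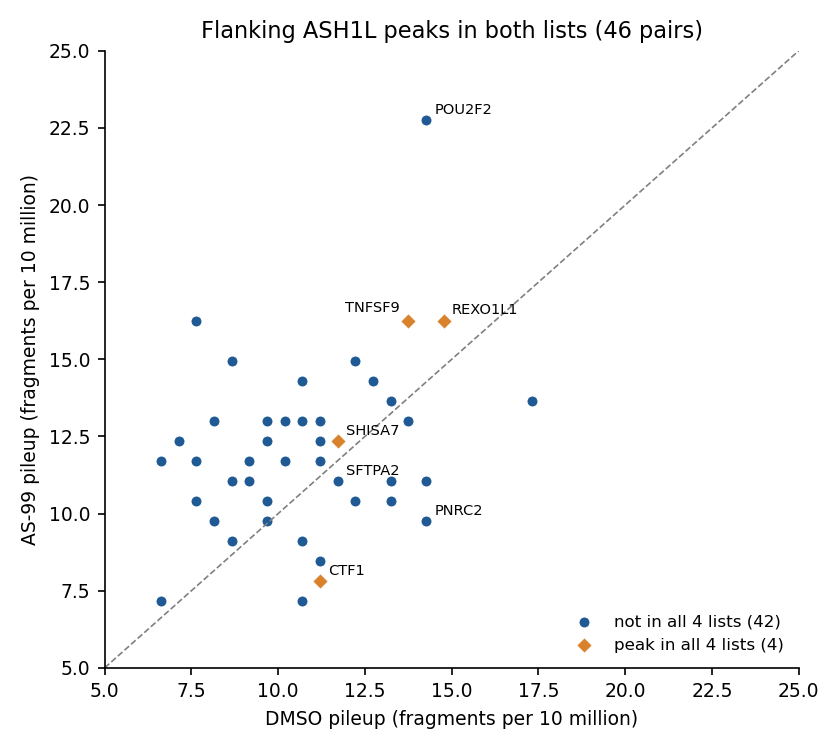
Pileup of the 46 flanking ASH1L peaks matched 1 to 1, per 10000000 filtered fragments, DMSO on the horizontal and AS-99 on the vertical axis, each point 1 pair and the dashed line equality. Orange diamonds are the 4 pairs with a peak in all 4 lists; 31 points lie above the line and 15 below, with POU2F2 highest and PNRC2 among the farthest below.

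H3K36me2 peaks covered few flanking ASH1L peaks. In DMSO, 28 of 409 (6.85%, 4.60 to 9.74%) overlapped a DMSO H3K36me2 peak, against 8.17% of all DMSO ASH1L peaks. In AS-99, 13 of 261 (4.98%, 2.68 to 8.37%) overlapped an AS-99 H3K36me2 peak, against 7.17%. The shares differed between treatments by -1.87 points (-5.39 to 2.07), within counting error. Across treatments, 16 DMSO peaks overlapped an AS-99 H3K36me2 peak (3.91%, with 4.98% over the list) and 19 AS-99 peaks a DMSO H3K36me2 peak (7.28%, with 7.95% over the list). The DMSO share exceeded that of promoter peaks by 4.89 points (2.48 to 7.86) and was below that of distal peaks by 6.72 points (interval of the difference -9.85 to -3.20). The AS-99 share did not differ from that of promoter peaks beyond counting error (-0.837 points, -4.83 to 3.18). DMSO flanking peaks found again in AS-99 carried H3K36me2 in 8 of 46 cases (17.4%), the others in 20 of 363 (5.51%). The former were also the higher peaks, as given above, and the part of height in this was not tested. Of the 8 cases, 4 had a peak in all 4 lists, and such peaks fall among those found again by definition. With lists trimmed to equal length the H3K36me2 shares were 10.3% in DMSO and 8.51% in AS-99, and with an outer limit of 5 kb the DMSO share was 4.41%. Without peaks beside assembly gaps and peaks in all 4 lists, the shares were 5.97% in DMSO and 3.53% in AS-99.

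**Figure D5:**
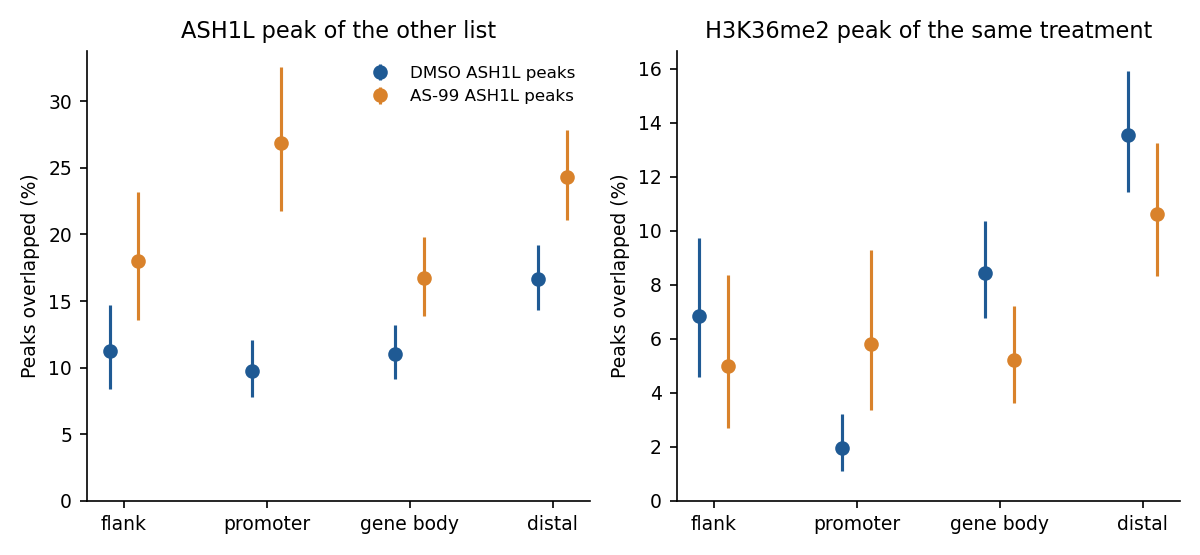
Share of ASH1L peaks of each class that overlapped an ASH1L peak of the other treatment (left) or an H3K36me2 peak of the same treatment (right), in percent with exact 95% intervals, for peaks of the DMSO list (blue) and the AS-99 list (orange). On the right, 6.85% of DMSO flanking peaks sit between 1.95% of promoter and 13.6% of distal peaks.

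Flanking peaks with ASH1L under both treatments and H3K36me2 in at least 1 list included 4 regions with a peak in all 4 lists. Over the whole DMSO ASH1L list 47 peaks were of this kind, 37 of them distal. With no control library, whether such shared peaks depend on the antibody was not tested. Upstream of TNFSF9, which encodes the costimulatory 4-1BB ligand, the pileups were 27 and 25 for ASH1L and 30 and 21 for H3K36me2, DMSO before AS-99 in each. Downstream of CTF1, the cardiotrophin gene, they were 22 and 12 for ASH1L and 23 and 15 for H3K36me2. In the intron of SHISA7 they were 23 and 19, then 18 and 17, and at REXO1L1 29 and 25, then 23 and 30. These are raw pileups, and both AS-99 libraries were the shallower ones. Per 10000000 filtered fragments, ASH1L at TNFSF9 went from 13.8 to 16.3 and at SHISA7 from 11.7 to 12.4, upward, whereas CTF1 went from 11.2 to 7.80. H3K36me2 on that scale went from 19.3 to 15.9 at TNFSF9, from 11.6 to 12.9 at SHISA7 and from 14.8 to 11.4 at CTF1. DBN1 (24 and 23) and SLC16A6 (19 and 20) had an H3K36me2 peak in DMSO only, of 16 and 14 fragments. C16orf78 (18 and 18), KCNE3 (21 and 14), JRK (27 and 20) and NUP62 (27 and 20) had one in AS-99 only, of 12, 15, 20 and 14 fragments. At the DMSO ASH1L summit near NUP62, 78.8% of the words occur more than once in the genome, so reads there are uncertain in origin.

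On 6 lists of genes of leukemia, blood development and H3K36 methylation, with 103 genes in all, 5 had a DMSO flanking peak (4.85%) and 1 an AS-99 flanking peak (0.971%), where 2.02% and 1.28% of all coding genes did. LMO2, an adaptor in hematopoietic transcription complexes and the only 1 of 23 MLL fusion targets, had a peak of 23 fragments 1935 bp upstream in DMSO. CEBPA, the granulocytic differentiation factor, had 22 fragments 9290 bp downstream in DMSO, within an H3K36me2 peak of 27, and FLI1, an ETS factor, had 16 in an intron 9336 bp from its start; they were 2 of 16 hematopoietic transcription factors. MPO, the myeloperoxidase of granules and 1 of 11 myeloid genes, had 19 fragments 4098 bp upstream. None of these had an AS-99 ASH1L peak. Of 39 HOX genes, HOXA4 had a DMSO peak (15 fragments, 6207 bp upstream) and HOXA13 an AS-99 peak (13 fragments, 1239 bp upstream). The lists of 12 writers, erasers and readers of H3K36 methylation and of 6 MLL complex genes had 0 flanking peaks in both ASH1L lists.

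Short sequence motifs were counted in the 300 bp around each summit on both strands and set beside 300-bp windows of the whole zone. Median GC was 44.3% in these windows, 54.7% in DMSO and 48.7% in AS-99 flanking peaks. No motif share was adjusted for base composition, so its part in the differences below was not tested. GGGCGG, the core of Sp and KLF sites, was in 98 of 409 DMSO and 27 of 261 AS-99 flanking peaks (10.3% of the latter) against 7.34% of windows. It holds a CpG itself, so this count moves with the CpG content given above. TGTGGT, a RUNX core, was in 21.8% and 22.2% against 20.5%. AGATAA, which GATA factors read, was in 12.2% and 16.1% against 17.2%, and TGANTCA, an AP-1 site, in 10.5% and 11.9% against 8.44%. GAGGAAGT, an ETS site of the PU.1 type, was in 13 DMSO peaks (3.18%, 1.70 to 5.37%) and 14 AS-99 peaks (5.36%, 2.96 to 8.84%) against 1.51% of windows. It was in 4.69% of DMSO and 2.52% of AS-99 gene body peaks. TGATTNAT, which HOX and MEIS factors read, was in 2.44% (1.18 to 4.45%) and 4.21% (2.12 to 7.42%) of flanking peaks against 4.78%. Further motifs were counted and are not given here. A match is a run of letters and not a bound site.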

How the data were processed

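CUT&RUN in MV4;11 cells gave 4 libraries, 1 per group, grouped by the labels. The study's methods name Bowtie2 and hg19 for read mapping. Per the file headers, the authors called peaks in each library with MACS 2.1.0.20150731 on paired-end fragments (q-value threshold 0.01, at most 2 duplicates, no control library). The methods text names another MACS version, spike-in DNA, replicates and a slightly higher dose; the headers and labels were followed, and whether a library pools cultures could not be settled. The deposited signal of a peak is its summit pileup, an unscaled coverage in fragments; the deposited −log10 p-value and −log10 q-value compare it with local background by a Poisson model, and the deposited fold enrichment is its ratio to that background. Positions and summits are other deposited columns, per the file headers.

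Starts came from GENCODE release 44 mapped to GRCh37 (20048 distinct starts of 20098 protein-coding genes on chromosomes 1 to 22 and X), and sequence from the GRCh37 assembly, which has the coordinates of hg19. Peaks were classed by start distance with Python 3.11.15, pandas 2.3.3 and scipy 1.17.1; class calls were tested on simulated peaks and overlaps against bedtools 2.31.1. Shares have Clopper-Pearson, differences Newcombe, count ratios exact conditional binomial and medians order-statistic 95% intervals; no p-value is given across peaks. Fragments without molecular identifiers may not be independent molecules. Thinning kept each DMSO fragment with a probability set by the filtered fragments of both libraries, and a peak had to reach the lowest AS-99 −log10 p.

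The class, gene lists and motifs were chosen with earlier results of these data known. Regions named are the 5 with the highest fold per side and list, the 10 with the highest fold among those shared by both ASH1L lists and an H3K36me2 list, the 5 highest without a counterpart, members of the gene lists and those at the class limits. Stricter thresholds, equal list lengths, other starts, limits and overlaps, and regions beside assembly gaps were tried as alternatives.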

Additional observations from a re-analysis of the deposited data

How the results depend on the processing

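No paired analysis was possible because no treatment has a second library of either antibody. Of 72 alternatives planned for 9 results and 20 chosen after seeing the data, 74 gave a value inside the 95% interval first reported, 17 a value outside it and 1 reversed a result whose interval excluded no difference. The sign of flanks minus promoters found again, whose interval includes 0, also changed under 2 (-3.08 and -0.475 points, CpG-poor and CpG-rich peaks); beyond what an alternative itself removes, the cause was not tested. With both lists of a comparison trimmed to the same length, the AS-99 over DMSO ratio of flanking peaks reversed to 1.07. Equal lengths fix the ratio over whole lists, so this value follows the flanking share alone and does not test the lower count. After the same trimming the share found again in AS-99 was 15.5%, and the H3K36me2 shares were 10.3% in DMSO and 8.51% in AS-99. With both lists limited to at least 6-fold enrichment, the ratio was 0.806, the share found again 19.4% and the share near another start 22.6%. With a 5-kb outer limit the DMSO H3K36me2 share was 4.41% and the share near another start 39.2%. A 50% reciprocal overlap lowered the share found again to 7.82%. Scaling by the summed pileup of listed peaks gave a matched log2 ratio of 0.53 (0.03 when fragment size was counted in), and thinning a count ratio of 0.759. CpG-poor peaks alone gave a ratio of 0.805 and 22.9% near another start. CpG-rich peaks alone gave 0.340 and 54.4% near another start. With both lists limited to CpG-rich peaks, 8.16% were found again. Flanking pileups with medians of 17 and 15 fragments, 1 library per group and the lack of a control library limit what depth can show: a peak in 1 list only may be listed or not by a difference of a few fragments.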

Other observations

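Flanking peaks were unevenly spread over chromosomes. Chromosome 19 held 71 in DMSO and 32 in AS-99, or 37.7 and 17.0 per 10 Mb of flanking sequence, and chromosome 8 held 27 and 18 (25.9 and 17.3). The whole zone had 14.1 and 9.0. Chromosome X held 1 in DMSO and 0 in AS-99. The AS-99 list had at least as many as the DMSO list on chromosomes 2 (14 and 14), 4 (10 and 10), 5 (12 against 10), 13 (7 against 6), 16 (16 against 14) and 22 (7 and 7). The number of copies of each chromosome in these cells is not in the lists, so its part in these densities was not tested.

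Peaks in which over 50% of the 31-base words around the summit occur more than once in the genome numbered 19 of 409 in DMSO (4.65%) and 12 of 261 in AS-99 (4.60%). Of these, 2 and 1 overlapped a peak of the other ASH1L list. Distal peaks had larger shares, 8.76% and 9.67%. Within 100 kb of an assembly gap of at least 50 kb lay 4 DMSO flanking peaks, 0.978% against 6.73% of distal peaks. Of the 214 AS-99 flanking peaks without a DMSO peak at the same place, 8 had a DMSO ASH1L peak at the start of their nearest gene. Over all 261 AS-99 flanking peaks it was 10 (3.83%, 1.85 to 6.93%). Of all coding gene starts, 4.66% had a DMSO ASH1L peak, so these counts show no excess.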
